A study of Canis lupus familiaris with 5 samples.

Results

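The splicing factor genes are a set of dog genes chosen by name from 3 lists of ChIP-seq peaks, the sites where a transcription factor was recovered with DNA. A gene belonged to the set when its symbol, or that of its human homolog where the dog gene had none, began with SRSF, SF3A, SF3B, HNRNP, PRPF, SNRP, U2AF or TRA2. These prefixes matched 54 Ensembl gene loci with 50 symbols among the 11509 named genes to which the lists assign peaks. Of the 54 loci, 39 carried a dog symbol and 15 were named from the human homolog. A further 22 symbols of the RefSeq dog gene table begin with the same letters, among them U2AF1, U2AF2 and SRSF1. No row of the lists names them as a nearest gene, so they were not analysed here and the set holds no U2AF gene. Unless stated otherwise, shares are thus of genes that were nearest to some listed peak.

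Binding of canine DUXC, of its isoform DUXC-ALT and of human DUX4 was measured in immortalized canine myoblasts, the precursor cells of skeletal muscle fibres. Per the labels, every factor was carried on a pCW57.1 vector in a line labelled as inducible by doxycycline (1 µg/ml for 24 hours), and both canine proteins bore the C-terminal domain of human DUX4, which the rabbit antisera recognize. Cells for DUXC and for DUX4 came from monoclonal lines, whereas DUXC-ALT was studied in a polyclonal one, so for DUXC-ALT the factor and the clonality cannot be told apart. There was 1 library and 1 peak list per factor, of 6031 peaks for DUXC, 561 for DUXC-ALT and 85825 for DUX4. The series also has 2 luciferase libraries, 1 from a polyclonal and 1 from a monoclonal line, labelled as not inducible by doxycycline. With no replicates, no difference between factors was tested. The lists give no read totals, so the depth of each library is unknown. The number of peaks in a list also follows depth and calling threshold and says nothing of the strength of a factor.

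Splicing removes introns from precursor RNA and is carried out by the spliceosome, a machine built from small nuclear ribonucleoprotein particles (snRNPs) and many further proteins. SR proteins usually bind exons and promote their inclusion, while hnRNPs coat nascent RNA and often repress or redirect splice sites. The SF3A and SF3B subunits belong to the particle that recognizes the branch point of the intron. PRPF proteins act in the larger particles that form the catalytic spliceosome, and Sm proteins of the SNRP genes form the ring around the small nuclear RNAs. Many SR and hnRNP genes contain highly conserved alternative exons through which they limit their own expression by nonsense-mediated decay, a pathway that human DUX4 is known to inhibit in human muscle cells.

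A peak was assigned to a gene when it overlapped one of the gene's transcripts named in the lists or lay within 5 kb of the transcription start site (TSS) of such a transcript. Under that rule DUXC had 10 peaks at splicing factor genes, 1 each at 10 loci, DUXC-ALT had none, and DUX4 had 77 peaks at 36 loci. Every one of the 10 loci with a DUXC peak also had a DUX4 peak, 26 loci had DUX4 peaks without DUXC, and 18 had no peak. Among other named genes, 1571 of the 1791 with a DUXC peak also had a DUX4 peak (87.7%). Of the genes with a DUX4 peak, 27.8% of splicing factor genes and 19.7% of other named genes also had a DUXC peak. The share of splicing factor genes with a DUXC peak was 18.5% (95% exact Clopper-Pearson interval 9.25 to 31.4%), beside 15.6% of the 11455 other named genes. For DUX4 the shares were 66.7% of splicing factor genes (52.5 to 78.9%) and 69.8% of the other named genes. Both intervals of the splicing factor genes included the share of all other named genes. Splicing factor loci were shorter than the others. Among genes within the central 80% of splicing factor lengths, the DUXC shares were 16.7% of splicing factor genes against 9.03% of other named genes. For DUX4 they were 61.9% against 54.9%. These shares rest on 7 and 26 of 42 splicing factor genes and are given without an interval, so no difference is read from them. The intervals here and below cover counting error only.

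**Figure D1:**
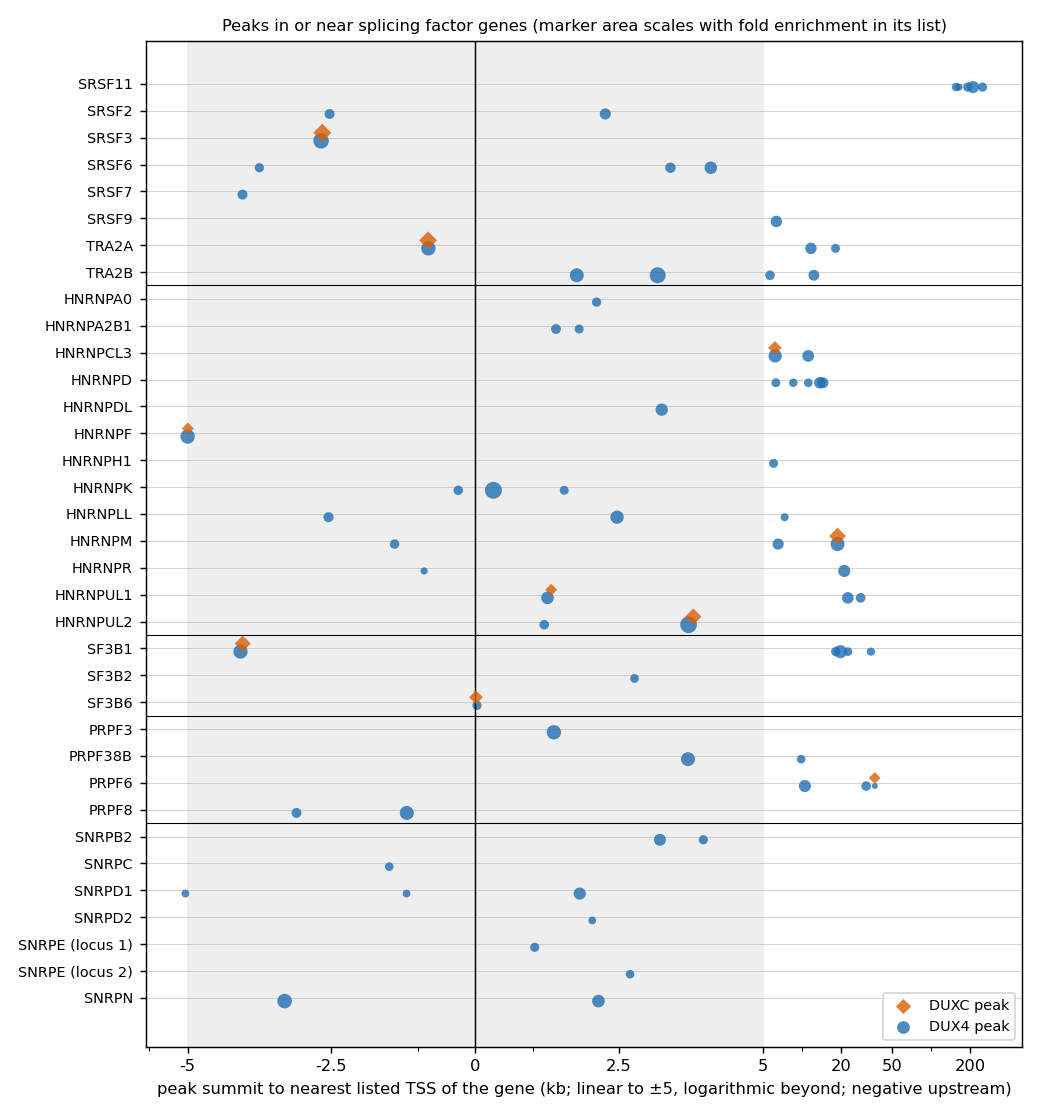
Peaks at 35 of the 36 splicing factor loci with at least 1 peak. The horizontal axis gives the distance of the peak summit from the nearest listed TSS of the gene in kb (negative upstream, logarithmic beyond 5 kb, shaded within 5 kb, although the rule uses the peak edge), diamonds are DUXC peaks, circles are DUX4 peaks, marker area scales with fold enrichment, and lines separate SR and TRA2 genes, hnRNP genes, SF3 genes, PRPF genes and SNRP genes. Each of the 10 DUXC diamonds sits on a DUX4 circle, and most of the 75 circles have no diamond.

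No DUXC-ALT peak was assigned to a splicing factor gene. A count of 0 of 54 allows a share of up to 5.56% (3 counts), and the other named genes had 1.67%, so a difference was not detectable with this number of genes. No DUXC-ALT peak had a splicing factor gene as its nearest gene at any distance either, against 2.36% of the other named genes with such a peak. Among the other named genes, DUXC-ALT peaks lay within 5 kb of the TSS of 0.471%, within 1 kb of 0.0873% and in the body of 1.34%.

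The DUXC peaks at splicing factor genes coincided with DUX4 peaks in 10 of 10 cases (100%, interval 69.2 to 100%). Among DUXC peaks at other named genes, 1222 of 2169 overlapped a DUX4 peak by at least 1 bp (56.3%, 54.2 to 58.4%). Summits of the 10 pairs lay between 3 and 82 bp apart, with a median of 19 bp. Seen from DUX4, 10 of its 77 peaks at splicing factor genes overlapped DUXC (13.0%, 6.41 to 22.6%), beside 4.42% (4.18 to 4.67%) of 27654 DUX4 peaks at other named genes. These counts are descriptions of single libraries, and what the shared C-terminal domain and antisera add to common peaks was not tested.

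Fold enrichment is the authors' ratio of peak signal over local background. Its scale is set within a list, so each value is given with its percentile in its own list. Pileup is the authors' height of the signal at the peak. Among the SR family genes, DUXC occupied SRSF3 and TRA2A. At SRSF3, which encodes the smallest SR protein family member and also acts in RNA export, the DUXC peak spanned canFam3 chromosome 12, 5674328 to 5674717, and ended 2466 bp before the TSS. Its fold enrichment was 12.6 at percentile 96.1, with a pileup of 22. The DUX4 peak over it (5674254 to 5674713) had a fold enrichment of 18.4 at percentile 98.9 and a pileup of 37.59. Both peaks were among the strong ones of their lists, and their summits lay 21 bp apart. A SINEC_Cf copy, a dog short interspersed element, was recorded beside the pair but held neither summit.

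TRA2A, one of a pair of SR-like splicing activators, had its DUXC peak 665 bp before the TSS (chromosome 14, 37183939 to 37184274), with a fold enrichment of 12 at percentile 95.3. The DUX4 peak there (37183872 to 37184382) had a fold enrichment of 15.8 at percentile 96.9, with its summit 5 bp away. The summits lay outside the GC-rich stretch recorded for this promoter. TRA2A also had 2 further DUX4 peaks, in intron 2 (9.96) and intron 4 (6.21), with no DUXC peak over them.

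The hnRNP genes held 5 of the 10 DUXC peaks, at HNRNPM, HNRNPUL2, HNRNPF, HNRNPUL1 and a locus whose only symbol is that of the human homolog HNRNPCL3. HNRNPM, a regulator of alternative splicing, carried its pair of peaks deep inside the gene, in intron 4 of 15, 18763 bp downstream of the TSS. The authors' nearest gene for this pair was another one, without a symbol. The DUXC peak there (chromosome 20, 53012587 to 53012938) had a fold enrichment of 10.8 at percentile 90.8, and the DUX4 peak began at the same base and had 15.1 at percentile 95.9. The summits were 3 bp apart, the closest of the 10 pairs. At HNRNPUL2, which encodes a relative of the nuclear scaffold protein hnRNP U, the pair lay over exon 5 of 14. The DUXC peak (chromosome 18, 53946174 to 53946458) had a fold enrichment of 10.4 at percentile 89.6, and the DUX4 peak had 21.5 at percentile 99.7, the second highest DUX4 value of the set.

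At the remaining hnRNP loci DUX4 peaks stood high in their list and DUXC peaks low or in the middle. HNRNPF, whose protein binds G-rich RNA, had a DUXC peak 4877 bp upstream of the listed TSS (fold enrichment 5.51, percentile 18.8) under a DUX4 peak of 15.8 (percentile 96.9). That locus spans 1245 bp, 6.03% of the RefSeq gene of the same name and the distance refers to this short locus. HNRNPUL1, another hnRNP U relative, had a DUXC peak of 5.38 (percentile 15.3) 1194 bp inside the gene and a DUX4 peak of 12.2 (percentile 88.6). A SINEC_a1 copy held the DUXC summit there and not the DUX4 summit. At the HNRNPCL3 homolog the DUXC value was 7.11 (percentile 53.5) and the DUX4 value 13.6 (percentile 93.2). The authors annotated that pair in a promoter, with a gene without a symbol as the nearest gene.

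Among genes of the branch point particle, SF3B1 and SF3B6 had DUXC peaks. SF3B1 encodes the largest subunit of SF3B, which clamps the branch point helix. Its DUXC peak lay 3859 bp upstream of the TSS in an MLT2C1 copy, a retroviral long terminal repeat (chromosome 37, 6966707 to 6967032; fold enrichment 9.85, percentile 86.8). The DUX4 peak over it had a fold enrichment of 15.4 (percentile 96.4), and its summit lay in the same repeat. SF3B6, the small subunit that contacts the branch point, was the only splicing factor gene with a peak covering the TSS in either list. Both peaks there were moderate, with 7.29 for DUXC (chromosome 17, 18559322 to 18559605; percentile 57.2) and 6.54 for DUX4 (percentile 36.1).

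PRPF6, which bridges particles of the assembled tri-snRNP, held the pair with the lowest fold enrichment in both lists, in intron 18 of 20 at a SINEC_a1 copy, a dog short interspersed element, that held the DUXC summit but not the DUX4 summit. The authors' nearest gene for this pair was another one, without a symbol. The DUXC peak had a fold enrichment of 5.23 (percentile 13.3) and the DUX4 peak one of 2.76 (percentile 0.0641). In pileup the order was different: the DUXC value of 22 equalled that of SRSF3, the highest of the 10, and the DUX4 value of 15.59 was above the 14.67 of SF3B6. The local background, taken as (pileup + 1) / fold enrichment − 1, was 3.40 at the DUXC and 5.0 at the DUX4 peak, against 0.828 and 1.09 at SRSF3. Both values were more than 3 times the percentile 1 of local backgrounds in their list. Of the 10 pairs, 8 had a DUX4 peak and 5 a DUXC peak in the strongest 25% of its list. The same shares were not counted for pairs at other named genes. There, DUX4 peaks that overlapped DUXC had a median fold enrichment of 11.0, already above the upper quartile of the whole DUX4 list (9.68).

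**Figure D2:**
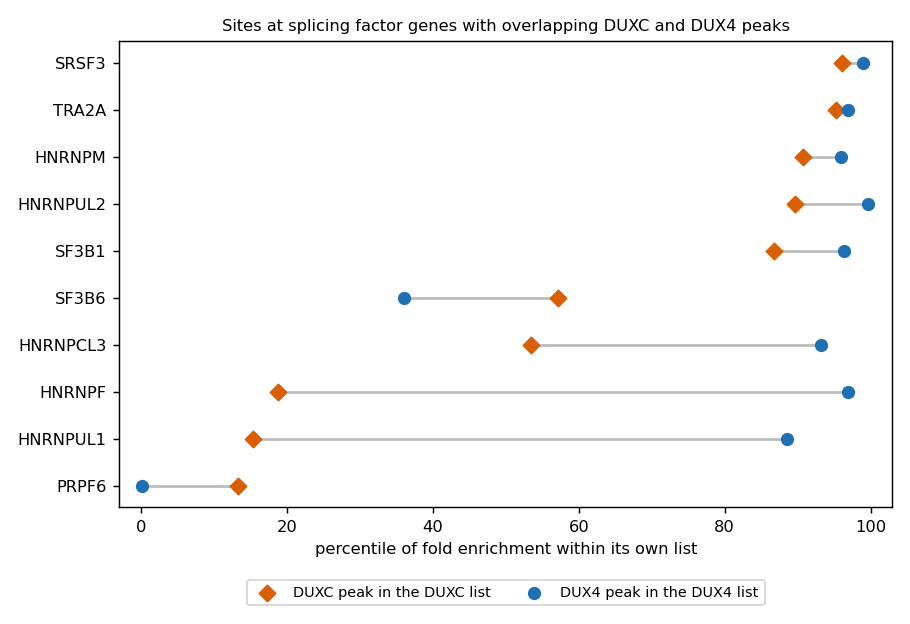
Percentile of fold enrichment within its own list for the DUXC peak (diamond) and the overlapping DUX4 peak (circle) at 10 splicing factor genes, ordered by DUXC fold enrichment. SRSF3, TRA2A, HNRNPM, HNRNPUL2 and SF3B1 stand high in both lists, HNRNPF and HNRNPUL1 high only in the DUX4 list, and PRPF6 low in both.

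The 5 kb limit left out 6 DUXC peaks whose nearest gene was a splicing factor gene. The closest lay 6157 bp upstream of SRSF3 (fold enrichment 8.75), so SRSF3 had a pair of DUXC peaks in its upstream region, and no DUX4 peak overlapped the outer one. The others were 24.7 kb upstream of PRPF39, 26.7 kb from TRA2B, 32.3 kb from the X-linked HNRNPK locus, 47.4 kb upstream of SRSF11 and 73.7 kb from SF3A3. Only those near TRA2B and SRSF11 overlapped a DUX4 peak. By nearest gene at any distance, 22.2% of splicing factor genes had a DUXC peak, beside 23.1% of other named genes. DUX4 thus coincided with 10 of 10 DUXC peaks inside the limit and with 2 of 6 outside it. Just inside the limit were the DUXC peak of HNRNPF at 4877 bp and a DUX4 peak of SNRPD1 at 4994 bp.

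DUX4 alone occupied further members of every role group. The strongest DUX4 peak of the whole set covered the first part of HNRNPK, which encodes a protein that binds C-rich RNA and DNA. It lay 151 bp downstream of the TSS (chromosome 1, 75501836 to 75502622), with a pileup of 44.93 and a fold enrichment of 22.0 (percentile 99.7), and no DUXC peak overlapped it. Weaker DUX4 peaks flanked it 184 bp upstream (7.06) and 1333 bp downstream of the TSS (6.18). The second HNRNPK locus, on the X chromosome, had no peak in or near it.

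TRA2B, the partner of TRA2A, had 4 DUX4 peaks and no DUXC peak within the limit. The strongest lay 2949 bp downstream of the TSS (19.5, percentile 99.3) and the next 1574 bp downstream (14.9). The others lay in intron 1 (7.05) and over exon 2 of 8 (9.01). SRSF6, a regulator of exon inclusion, had 3 DUX4 peaks, 2 beyond the listed end of the gene (11.9 and 8.37) and 1 upstream (6.61). SRSF2, which binds exonic enhancers, had DUX4 peaks 2087 bp downstream (9.53) and 2271 bp upstream (7.57) of the TSS. The SRSF2 locus spans 875 bp, 22.1% of the RefSeq gene length, and the downstream peak lay beyond its listed end. The upstream peak had MFSD11 as the nearest gene, so its assignment to SRSF2 is uncertain. SRSF7 (7.67) and SRSF9 (10.1) had 1 DUX4 peak each. SRSF4, SRSF5, SRSF10 and SRSF12 had none, although the SRSF10 locus covers only 18.2% of the RefSeq gene length.

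SRSF11 shared the highest number of DUX4 peaks, 5, with HNRNPD and SF3B1. Its listed transcript spans 276097 bp, 977% of the RefSeq gene length, and 4 of its 5 peaks had LRRC40 as the nearest gene, so their assignment to SRSF11 is uncertain. HNRNPD encodes a protein that binds AU-rich elements. Of its 5 DUX4 peaks 1 covered its exon 6 (9.24), and 4 were annotated by the authors in an intron of another, overlapping Ensembl gene (5.53 to 10.1). The 5 DUX4 peaks of SF3B1 comprised the upstream pair partner and 4 within the gene, the strongest in intron 6 (13.2) in an MLT1B repeat. HNRNPA2B1 and HNRNPR had 2 DUX4 peaks each, HNRNPLL had 3 (the strongest 13.6), and HNRNPA0, HNRNPDL and HNRNPH1 had 1 each. HNRNPA1L2, HNRNPH2, HNRNPU, the X-linked HNRNPK locus and a second HNRNPCL3 homolog had none. Of these, the HNRNPH2 locus has 21.9% and the X-linked HNRNPK locus 16.4% of the length of the RefSeq gene of the same name.

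Among the PRPF genes, DUX4 peaks lay at PRPF3 (15.9; 1175 bp downstream of the TSS), which encodes a tri-snRNP protein, and at PRPF8 (15.1; 1031 bp upstream), whose product forms the core of the catalytic centre. PRPF38B had a DUX4 peak over exon 3 of 6 (14.9), and PRPF6 had 3. PRPF38A and PRPF39 had no peak of any factor. In the SF3 group SF3B2 had a weak DUX4 peak (5.88), and SF3A3 and SF3B5 had none. The SF3A3 locus spans 1506 bp, 6.08% of the length of the RefSeq gene of that name. The search covered this short locus and 5 kb around its listed TSS, and whether it is part of that RefSeq gene was not tested.

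The SNRP genes were the role group without a DUXC peak, 0 of 12 loci, with an interval that reaches 26.5% and includes the background of 15.6%. DUX4 had peaks at 7 of these 12 loci. SNRPN, an Sm protein gene that is imprinted in humans and mice, had the strongest, 3126 bp upstream of the TSS (16.4, percentile 97.5) and 1971 bp inside the gene (12.3). Summits of both SNRPN peaks lay in L1_Canis1 copies, a dog LINE family. SNRPD1, which encodes a subunit of the Sm ring, followed with 11.4, and a locus of SNRPB2 with 11.0. The peaks at SNRPC (5.74), SNRPD2 (4.61) and the 2 SNRPE loci (6.45 and 5.74) belong to loci of 276 to 477 bp, 3.31 to 6.48% of the length of the RefSeq gene of the same name. In all, 12 of the 50 loci with a RefSeq length were shorter than 25% of it, with 1 DUXC-bound and 6 DUX4-bound locus among them. SNRPB, SNRPD3, SNRPF, SNRPG and a short SNRPB2 locus had no peak. The SNRPD3 locus is also short, 381 bp or 2.37% of the RefSeq gene length.

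By role group, DUXC peaks were found at 2 of 12 SR and TRA2 loci, 5 of 18 hnRNP loci, 2 of 5 SF3 loci, 1 of 7 PRPF loci and 0 of 12 SNRP loci. DUX4 peaks were found at 8 of 12, 13 of 18, 3 of 5, 5 of 7 and 7 of 12 loci in the same order. Every interval of these shares included the background share of its list. Of 108 other splicing genes listed by name (spliceosome components, exon junction and export factors, further regulators and splicing kinases), 69 symbols at 71 loci were named in the lists. DUXC peaks lay at 13 of the 71 (18.3%, 10.1 to 29.3%), DUXC-ALT peaks at none and DUX4 peaks at 60 (84.5%, 74.0 to 92.0%). The DUX4 interval lies above the background of 69.8%, and these genes had a median length of 23888 bp, against 3746 to 21008 bp in the role groups and 25761 bp in all other named genes. PNN, which encodes the splicing-associated protein pinin, had the DUXC peak with the highest fold enrichment, 44.3, also the highest value of the whole DUXC list. It lay 184 bp before the TSS and overlapped a DUX4 peak. The next highest were those of MBNL1 (11.5), a muscle splicing regulator, PTBP3 (10.4), a relative of the polypyrimidine tract protein, LSM5 (2 peaks of 9.85), an Sm-like protein, and THOC2 (9.8), an RNA export factor. Of the 14 DUXC peaks at these genes, 9 overlapped DUX4. Those without a DUX4 peak were at CHERP, CWC27, LSM4, MBNL1 and 1 of the 2 at LSM5.

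**Figure D3:**
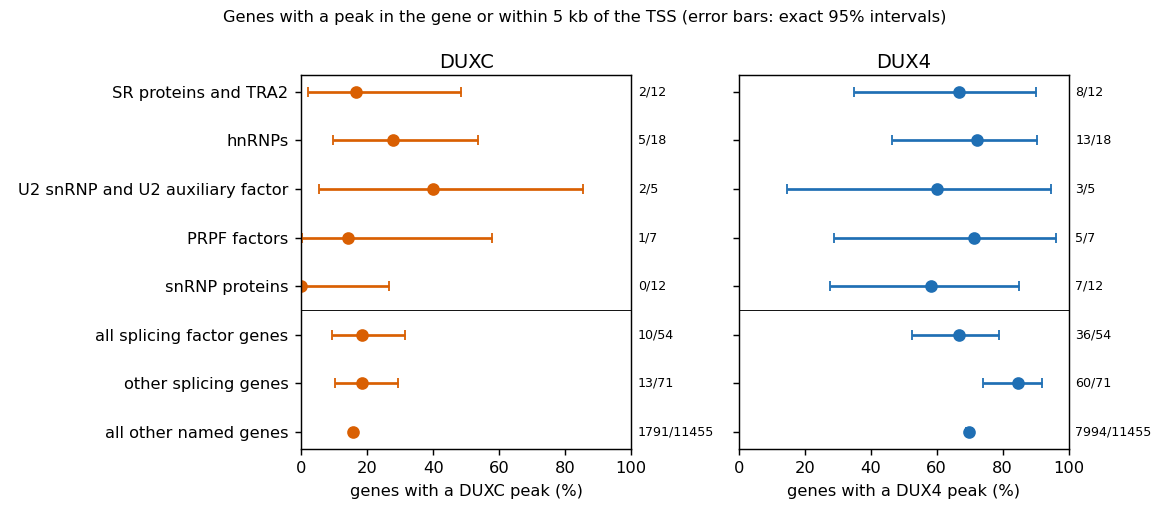
Share of genes with a DUXC peak (left) and a DUX4 peak (right) in the gene or within 5 kb of the TSS, in percent, for 5 role groups, all splicing factor genes, other splicing genes and all other named genes. Points are shares, error bars are exact 95% intervals and the numbers at the right are genes with a peak over all genes: the 10 of 54 and 36 of 54 for splicing factor genes have intervals that include the shares of the 1791 and 7994 of 11455 for all other named genes, which include the other splicing genes.

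The position of the peaks relative to the gene depended on how a gene was searched. Splicing factor loci were shorter than the other named genes (median 10099 against 25761 bp), so that a search of the gene body covers less sequence in them. Within 5 kb of any listed TSS, 7 of 54 splicing factor genes had a DUXC peak (13.0%, 5.37 to 24.9%), beside 5.38% of other named genes. For DUX4 the count was 29 of 54 (53.7%, 39.6 to 67.4%), beside 38.7%. The searched window grows with the number of listed TSSs, of which 2 or more were listed for 3.7% of splicing factor genes and 11.1% of other named genes. With only the most upstream listed TSS of each gene, the shares were 13.0% of splicing factor genes against 5.09% of other named genes for DUXC and 53.7% against 37.0% for DUX4. In gene bodies alone the order was the other way, with 11.1% of splicing factor genes against 13.0% for DUXC and 46.3% against 56.6% for DUX4. Within 1 kb of a TSS the shares were 3.7% against 1.64% for DUXC and 9.26% against 8.5% for DUX4. Among the shares under these rules, only those within 5 kb had an interval that left out the background. For DUX4 this held with any listed TSS and with only the most upstream TSS (39.6 to 67.4%, against 37.0%). For DUXC the interval was 5.37 to 24.9% under either choice. Its lower end was just below the background of 5.38% with any listed TSS and just above that of 5.09% with the most upstream TSS.

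**Figure D4:**
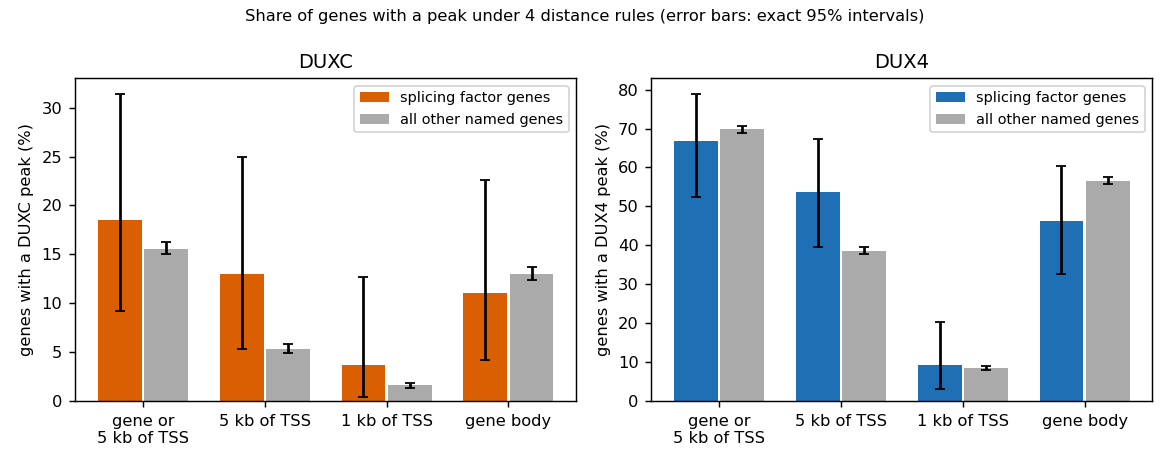
Share of genes with a DUXC peak (left) and a DUX4 peak (right), in percent, under 4 rules for tying a peak to a gene. Coloured bars are the 54 splicing factor genes, grey bars the 11455 other named genes, and error bars are exact 95% intervals: the coloured bar is above the grey one within 5 kb of the TSS (13.0 against 5.38% and 53.7 against 38.7%) and below it in gene bodies (11.1 against 13.0% and 46.3 against 56.6%).

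The authors' annotation of where a peak lies, which places each peak in a single category, put 11 of the 77 DUX4 peaks at splicing factor genes in exons (14.3%, 7.35 to 24.1%), beside 4.5% at other named genes. In 8 cases the exon belonged to the splicing factor gene itself: exon 5 of HNRNPUL2, exon 3 of PRPF38B, exon 6 of HNRNPDL, exon 8 of PRPF6, exon 6 of HNRNPD, exon 2 of TRA2B, exon 5 of SF3B1 and exon 10 of HNRNPH1. Introns held 31.2% (21.1 to 42.7%) against 78.0%, and promoters as the authors annotated them 42.9% (31.6 to 54.6%) against 12.8%. The splicing factor loci were also shorter, as given above, and the part of gene length in these shares was not tested. A repeat recorded for the peak held the summit of 22.1% (13.4 to 33.0%), against 41.0% at other named genes.

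The height of the DUX4 peaks at splicing factor genes was close to that at other named genes in the median, with a higher upper quartile. Their median fold enrichment was 7.49 (quartiles 6.18 and 11.7, range 2.76 to 22.0), against 7.37 (5.89 and 9.77). Median pileup was 19.3 against 17.4. Fold enrichment reached 10 at 37.7% of the peaks (26.9 to 49.4%), beside 23.7% at other named genes. DUXC peaks at splicing factor genes had a median fold enrichment of 8.57 (range 5.23 to 12.6, 10 peaks), against 7.11, and a median pileup of 17.5 against 15. The exact interval of that DUXC median, 5.38 to 12, included the value at other named genes. Where DUX4 peaks at splicing factor genes overlapped DUXC, their median fold enrichment was 15.2, against 7.08 at the 67 without DUXC. At other named genes the same medians were 11.0 and 7.34.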

How the data were processed

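ChIP-seq peak lists of 3 libraries, 1 each for DUXC, DUXC-ALT and DUX4, were analysed. Lists of the 2 luciferase libraries were not analysed here. Tools listed in the submitters' processing notes are MACS2 2.1.0, BWA 0.7.10 and CASAVA, with canFam3 as the genome build, and no role or order is given there. The control library, threshold and later filters are not given in the sources used here. The deposited values used were the pileup (a signal height), the fold enrichment (a ratio) and the −log10 q-value of each peak, all the authors' own. Every peak name in a list carries the title of the same sample, and each list was treated as the calls of that 1 library. Gene, transcript, place and repeat are the authors' annotation.

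Gene spans and start sites came from the transcripts named in the 3 lists, so a gene nearest to no peak has none. Peaks were tied to genes by overlap with a transcript or a distance of at most 5 kb from the nearest peak edge to a TSS. A peak could count for more than 1 gene. Overlap between lists meant at least 1 bp. Shares carry exact Clopper-Pearson 95% intervals, and medians carry exact binomial intervals of order statistics. With 1 library per factor no test was made. Python 3.11.15, pandas 2.3.3, numpy 2.4.6, scipy 1.17.1 and matplotlib 3.10.9 were used. The assignment and overlap code was tested on simulated peaks.

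Genes named in the text were all those with a DUXC or DUXC-ALT peak, the 15 with the highest DUX4 fold enrichment, the 5 with most DUX4 peaks and those of each role group without a peak. Others were named to complete their group. The members, the list of other splicing genes and the rules were chosen with earlier results of these data known. RefSeq gene lengths come from another assembly (UU_Cfam_GSD_1.0) and serve as a rough check. No genome sequence was used here, so a planned search for homeobox motifs was not made. The values of 1 locus are not reported here, although it is included in the counts.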

Additional observations from a re-analysis of the deposited data

How the results depend on the processing

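Results were recomputed under 16 alternatives, each for the results it bears on: the medians under 2 of them, the overlap shares under 7. Of 85 values, 68 stayed within 1.5 times (counts) or the 95% interval (shares and medians) and 17 moved. Where a setting keeps fewer peaks or adds genes, lower values follow from its construction. Within 5 kb of the TSS, DUX4 peaks at splicing factor genes numbered 43, and 43 also with only the most upstream listed TSS of each gene. Within 1 kb, DUXC had 2 peaks (3.7% of genes) and DUX4 6 (9.26%). In gene bodies DUXC had 6 peaks, and DUX4 peaks were found at 46.3% of genes. By nearest gene at any distance DUX4 had 152 peaks at 100% of genes, against 97.5% of other named genes. Every gene counted was the nearest gene of some listed peak, and most listed peaks were of DUX4. Shares near 100% thus follow from how the genes were chosen, and these 2 shares do not compare the groups. At fold enrichment of at least 10, DUXC had 4 peaks (7.41% of genes, against 2.7%) and DUX4 29 (44.4%, against 33.2%), whose medians were 13.6 for fold enrichment and 30.3 for pileup. With RefSeq protein-coding symbols as denominator the DUX4 share was 47.8%, against 40.1%.

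The share of splicing factor genes was above that of other named genes in 11 of 13 settings for DUXC and 7 of 13 for DUX4. The 7 for DUX4 include the nearest gene at any distance, which does not compare the groups. All settings reuse the same peaks and genes, so no difference is read from these counts. Without loci under 25% of the RefSeq length in either group the share was 21.4% against 16.6% for DUXC and 71.4% against 72.3% for DUX4. Overlap of DUXC peaks with DUX4 stayed at 100% in 6 of the 7 settings that gave it. It was 90.0% with −log10 q of at least 5, where the DUX4 peak at PRPF6 was lost. Of the 5 settings chosen after seeing the data, the single TSS moved the DUX4 count above, and the others (the authors' nearest gene, no short loci, no raised background, no summits in SINEs) moved no value by the limits above. With the authors' nearest gene only, DUXC peaks lay at 7 of 54 splicing factor genes (13.0%), against 11.9% of other named genes. No paired analysis was possible because each factor had 1 library. With 10 DUXC peaks, the intervals are wide.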
